A study of Mus musculus with 4 samples.

Results

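The ADAM, ADAMTS and MMP metalloproteinases and their TIMP inhibitors were examined in an ATAC-seq comparison of lymph node fibroblasts. ATAC-seq marks open chromatin, where a transposase can insert adapters. Accessible regions were built by joining 300 bp windows that lay up to 100 bp apart, and each was assigned to the protein-coding gene it overlapped or, failing that, to the nearest gene within 100000 bp. The listed genes are 10 ADAM, 18 ADAMTS, 13 MMP and 3 TIMP genes. All 44 had at least 1 region, and together they held 450 of 95449 regions with a gene (110110 regions in all): 92 at ADAM, 273 at ADAMTS, 64 at MMP and 21 at TIMP genes. The members had a median of 8 regions a gene, against 3 over all 17693 genes with a region. Timp1 is not analysed here.

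The cells were fibroblastic reticular cells, the fibroblasts whose network supports the lymph node and guides lymphocytes in it. They came from brachial, axillary and inguinal nodes of female C57BL/6 mice aged 12 weeks, and were sorted as live BP3hi Pdpn+ CD31- CD45- cells. In 2 libraries the mice were Ccl19-Cre x Notch2 fl/fl (called Notch2_cKO here). In the other 2 they were Notch2 fl/fl littermates (control), so both groups carried the floxed allele. Each library pooled 6 mice and 50000 cells, and Cre acts only in cells with a history of Ccl19 promoter activity. The comparison asks how accessibility at these genes differs when Notch2, a receptor of the Notch family, is targeted in these fibroblasts.

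Metalloproteinases use a zinc ion to cut proteins outside or at the surface of the cell. ADAMs are mostly membrane-bound sheddases that release growth factors, cytokines and receptor ectodomains, and ADAM10 also cuts Notch receptors once a ligand is bound. ADAMTS enzymes are secreted and process proteoglycans, procollagens and other matrix proteins, MMPs degrade collagen and other matrix, and TIMPs block the active site of these enzymes. In the lymph node, fibroblasts lay down and remodel the collagen-rich conduit network, so these genes belong to their matrix programme.

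Levels are given as normalized CPM, counts scaled to library size after a loess adjustment for level, one value per library. Changes are log2 of Notch2_cKO over control from the fit, with an approximate standard error (SE) and n = 2 libraries a group. The best windows of the regions, those with the highest summed count, summed to 23629588 and 25740366 (controls) and to 30260067 and 12340742 (Notch2_cKO). At the start of Notch2 itself (chromosome 3, 98013151 to 98013800) the 4 libraries had 55.3, 57.5, 55.3 and 46.2 normalized CPM, the first pair being the controls (log2 -0.14, SE 0.10, edgeR adjusted p = 0.340; lower without Notch2_cKO replicate 1, log2 -0.28, edgeR adjusted p = 0.0177), and the region does not check the deletion. All libraries are labelled female, but at the Y-linked genes Ddx3y and Eif2s3y control replicate 2 had 221 and 201 counts and no other library had any. Of the 10 reticular fibroblast markers, 8 had a region (Ccl19 and Ccl21a not analysed here) and 7 a gene-end region, and accessibility summed over those 7 genes was 170.6 and 174.3 CPM in the controls and 173.9 and 162.1 in Notch2_cKO. The blood endothelial, lymphatic and leukocyte lists were sparser at gene ends, and the mural list was not. Of 6 blood endothelial genes only Tek and Kdr had a gene-end region: the single one of Tek had 15.7 and 14.0 CPM in the controls and 23.7 and 26.3 in Notch2_cKO, and the higher one of Kdr 7.81 and 8.44 against 8.54 and 6.91. Over all 59 regions of that list 12 were higher and 4 lower. Of 6 lymphatic genes only Prox1 and Flt4 had one, with a sum of 28.2 and 25.7 against 28.7 and 28.6 CPM, and 0 of 52 regions were higher and 8 lower. Of 7 leukocyte genes only Spi1 and Coro1a had one (23.4 and 22.8 against 26.7 and 22.5 CPM), and none of 13 regions was called. Of 4 mural genes Rgs5, Cspg4 and Notch3 had one (25.4 and 27.1 against 20.6 and 19.3 CPM), with 4 of 32 regions higher and 3 lower. Pecam1, Cdh5, Ptprc and Cd3e were among the genes with none. The part of these other lists in the results was not tested.

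Accessibility changed in both directions at these genes. Of the 450 regions, 75 were higher in Notch2_cKO (16.7%), 55 were lower (12.2%) and 320 did not pass the test (edgeR's quasi-likelihood fit, with p adjusted by Benjamini-Hochberg over all 110110 regions and called under 0.05). Of all regions with a gene, 12.2% were higher and 10.4% lower. The members' median log2 change was 0.07, and that of all regions with a gene 0.02. Of these calls, 36 higher and 23 lower ones were at least 2-fold, where 5.29% and 3.94% of all regions with a gene had such changes. In pools of cells, more open chromatin per cell and a larger share of cells with an open region cannot be told apart.

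The balance of calls varied by family. ADAM genes had 19 higher and 10 lower of 92 regions (median log2 0.17). Adam12 alone held 38 of these regions, with 10 of the higher calls and 0 of the lower. ADAMTS genes had 42 higher and 34 lower of 273 (median 0.04), and 22 of the higher but 8 of the lower regions changed at least 2-fold. MMP genes had 9 higher and 10 lower of 64 (median 0.09), and TIMP genes 5 higher and 1 lower of 21 (median 0.19). No test was made between families. The counts depended on single libraries: the 75 and 55 became 46 and 41 without control replicate 2, the library with Y-linked counts, 56 and 35 without control replicate 1, 63 and 48 without Notch2_cKO replicate 1 and 80 and 58 without Notch2_cKO replicate 2. Higher ADAM calls fell to 10 without control replicate 2 and to 10 without Notch2_cKO replicate 1, and lower ones to 6 without control replicate 1. Higher ADAMTS calls fell to 27 without control replicate 2, and lower ones to 22 without either control. Higher TIMP calls fell to 3 and 2 without control replicate 1 and 2, and the lower one was lost without each control and without Notch2_cKO replicate 2. Which direction had more MMP calls changed with the setting: there were 8 higher and 7 lower without control replicate 1, 10 and 8 without Notch2_cKO replicate 1, 12 and 11 without Notch2_cKO replicate 2, 10 and 9 with the replicate number as a block, 8 and 6 with genes within 10000 bp and 9 and 8 at 1.5-fold or more. With DESeq2 the member counts were 39 and 26.

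**Figure D1:**
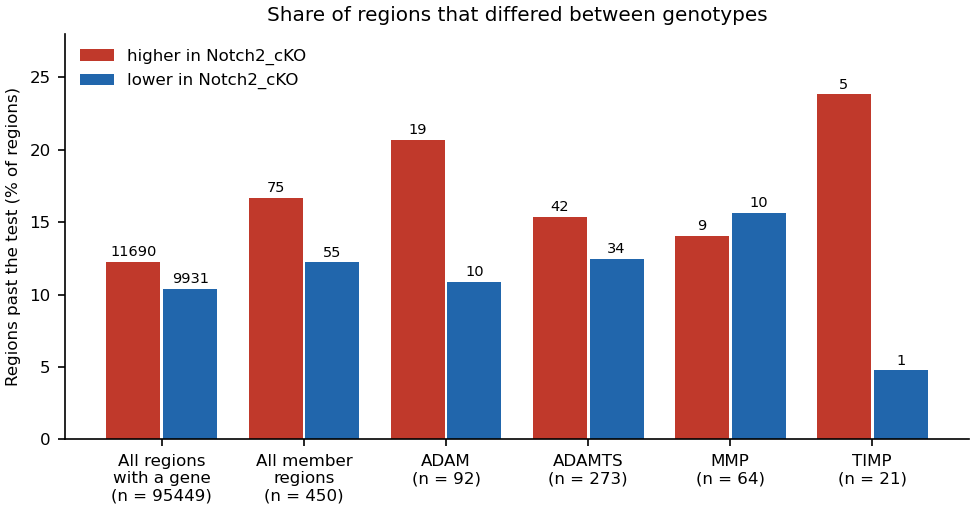
Share of regions higher (red) or lower (blue) in Notch2_cKO, in percent of each group's regions on the vertical axis, for all regions with a gene, all 450 member regions and each family; the number over each bar is the count of regions. The higher bar of each family stands above the 12.2% of all regions with a gene, from 14.1% (MMP) to 23.8% (TIMP). The lower bar stands above the 10.4% of all regions with a gene at ADAM (10.9%), ADAMTS (12.45%) and MMP (15.6%), and below it at TIMP (4.76%). The 2 MMP bars differ by 1 region (9 higher, 10 lower).

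Seen gene by gene, 12 member genes had only higher regions among their calls, 13 only lower, 12 both and 7 none. ADAMTS genes held most of the mixed loci: 8 of 18 had calls in both directions, against 2 of 10 ADAM, 2 of 13 MMP and 0 of 3 TIMP genes. ADAMTS genes also held more regions, 273 against 92 at ADAM, 64 at MMP and 21 at TIMP genes. The gene counts were not matched for the number of regions. The genes without a call were Adam8, Adam15, Adamts14, Mmp11, Mmp14, Mmp19 and Mmp23. Over all genes with a region, 3377 had only higher, 2724 only lower and 2232 both kinds of call, while 9360 had none. Those genes had a median of 3 regions, against 8 for the members.

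**Figure D2:**
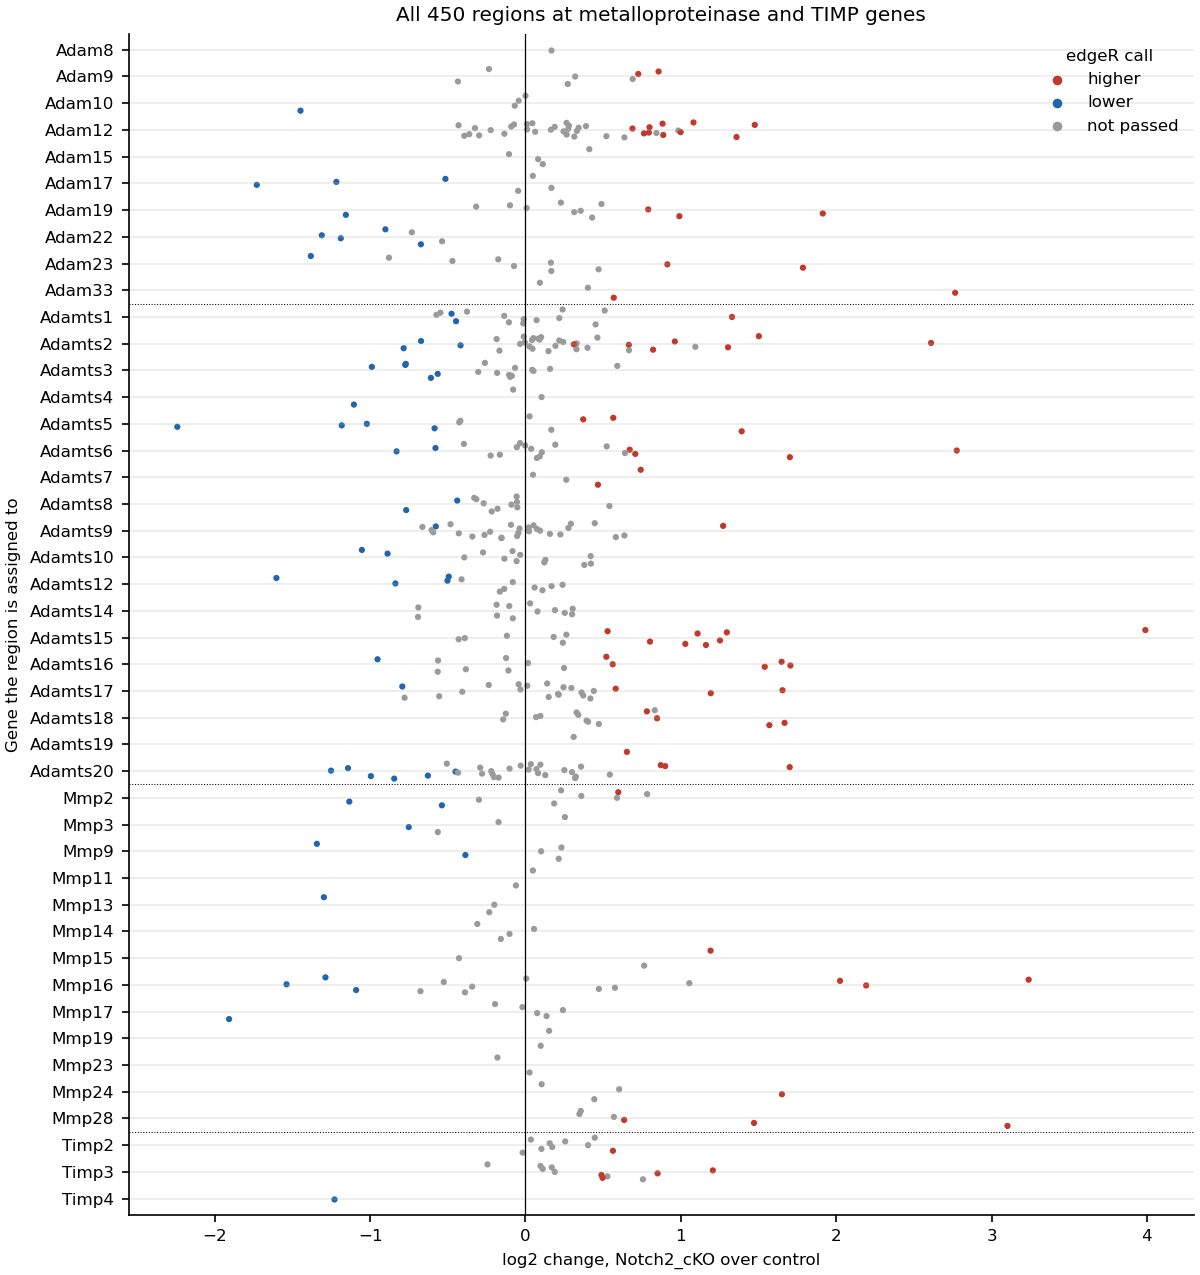
Log2 change of Notch2_cKO over control (horizontal axis) of each of the 450 regions, by gene (rows; regions of a gene in genome order from top to bottom of its row), coloured by the edgeR call. The farthest point to the right is the Adamts15 region with log2 3.99, and the farthest to the left the Adamts5 region with log2 -2.24.

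Most calls, like most member regions, lay away from the gene ends. These are the 2 ends of a gene's annotated interval, one of which is its start. Within 1000 bp of an end there were 44 member regions, 4 higher and 4 lower (9.09% each). Of all gene-end regions 5.71% were higher and 4.46% lower. Inside genes 46 of 261 were higher and 30 lower (17.6% and 11.5%, against 13.4% and 11.6% of all such regions). Outside genes 25 of 145 were higher and 21 lower (17.2% and 14.5%, against 13.1% and 11.1%). The 4 gene-end regions that were higher belonged to Adamts15, Adam33, Adamts5 and Mmp28, and the 4 that were lower to Adam22, Adamts12, Adamts4 and Timp4. Without control replicate 1 this count fell to 1 higher and 1 lower. It was 2 and 3 without control replicate 2, 2 and 8 without Notch2_cKO replicate 1 and 9 and 2 without Notch2_cKO replicate 2.

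RefSeq promoter entries (build GRCm38.p6, the NCBI name of mm10) matched 27 of the 44 genes, with 30 starts. In 3 of these genes the region that overlaps the start passed the test, and the 250 bases before the start of each are shown. Each of these stretches lies only partly in the window that was counted for its region. Mmp3, a stromelysin whose start did not pass, is shown for comparison. Positions are chr5:8368161-8368410, minus strand, for Adam22, chr11:83463041-83463290, minus strand, for Mmp28, chr15:11064523-11064772, plus strand, for Adamts12, and chr9:7445572-7445821, plus strand, for Mmp3. Capitals mark TGGGAA, the core letters bound by RBPJ, the DNA-binding partner of Notch, or TGANTCA, the site of AP-1 factors; both strands were searched, so a match on the other strand reads TTCCCA.
Adam22: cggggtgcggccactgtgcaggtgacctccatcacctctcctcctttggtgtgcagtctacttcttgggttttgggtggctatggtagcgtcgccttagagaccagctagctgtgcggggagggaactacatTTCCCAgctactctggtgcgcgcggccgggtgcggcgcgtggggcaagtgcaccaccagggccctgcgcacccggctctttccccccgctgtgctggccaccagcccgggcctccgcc
Mmp28: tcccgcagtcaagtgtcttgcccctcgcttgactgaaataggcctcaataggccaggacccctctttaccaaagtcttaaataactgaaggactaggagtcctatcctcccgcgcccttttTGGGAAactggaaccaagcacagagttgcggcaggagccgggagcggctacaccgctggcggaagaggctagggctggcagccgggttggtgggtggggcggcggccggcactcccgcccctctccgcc
Adamts12: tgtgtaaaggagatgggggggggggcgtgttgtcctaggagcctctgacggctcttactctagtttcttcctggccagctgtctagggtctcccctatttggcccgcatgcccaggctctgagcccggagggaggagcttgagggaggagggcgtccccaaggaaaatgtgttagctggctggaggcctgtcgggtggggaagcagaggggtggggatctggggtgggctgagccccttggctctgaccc
Mmp3: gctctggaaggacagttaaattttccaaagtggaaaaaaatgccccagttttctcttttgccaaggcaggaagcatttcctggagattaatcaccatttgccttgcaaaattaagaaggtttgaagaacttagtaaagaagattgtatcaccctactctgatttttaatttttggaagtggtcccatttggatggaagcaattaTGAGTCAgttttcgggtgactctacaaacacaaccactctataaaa

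TGGGAA or its reverse complement was found in 3 of the 30 member promoters (10%), against 21.6% of 32851 promoters of the same length. They were those of Adam22 (lower; 118 to 113 bp before the start, on the other strand), Mmp28 (higher; 129 to 124 bp) and Adamts14, a procollagen N-proteinase gene whose start did not pass (220 to 215 bp). TGANTCA was found in 3 of 30 (10%), against 6.75% of all: at Mmp13 (35 to 29 bp), Mmp3 (46 to 40 bp) and Adam19 (131 to 125 bp). No start that passed held TGANTCA, and that of Adamts12 held neither motif. Member promoters had a median GC content of 63.4%, and all promoters 52.4%. The Mmp28 match lay outside the window counted for its region (83462851 to 83463150). These matches describe letters in a sequence and not binding.

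Summing a gene's best-window counts over all its regions gave 1 value per gene and library. By this measure 13 of the 44 rose, 5 fell and 26 did not pass, and the median log2 change was 0.10 (all 17693 genes: 10.3% higher and 8.27% lower, median -0.01). Among genes with 4 to 13 regions, the middle range of the members, 14.1% were higher and 9.21% lower. Higher sums were found at Adam12, Adam19, Adam33, Adamts2, Adamts5, Adamts7, Adamts15, Adamts16, Adamts18, Adamts19, Mmp28, Timp2 and Timp3, with log2 changes from 0.21 (Adamts2) to 0.95 (Adamts15). Lower sums were found at Adam17, Adam22, Adamts4, Adamts12 and Mmp13, from -0.27 (Adam17) to -0.88 (Adam22). Of these 18 calls, 6 held in each alternative that was run for sums: Adam12, Adam22, Adam33, Adamts15, Adamts18 and Mmp28. The gene limit of 10000 bp, the 1.5-fold minimum and merging at 500 bp were not run for sums. Without control replicate 1, 8 sums were higher and 1 lower, and without control replicate 2, 7 and 4. It was 14 and 3 without Notch2_cKO replicate 1.

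**Figure D3:**
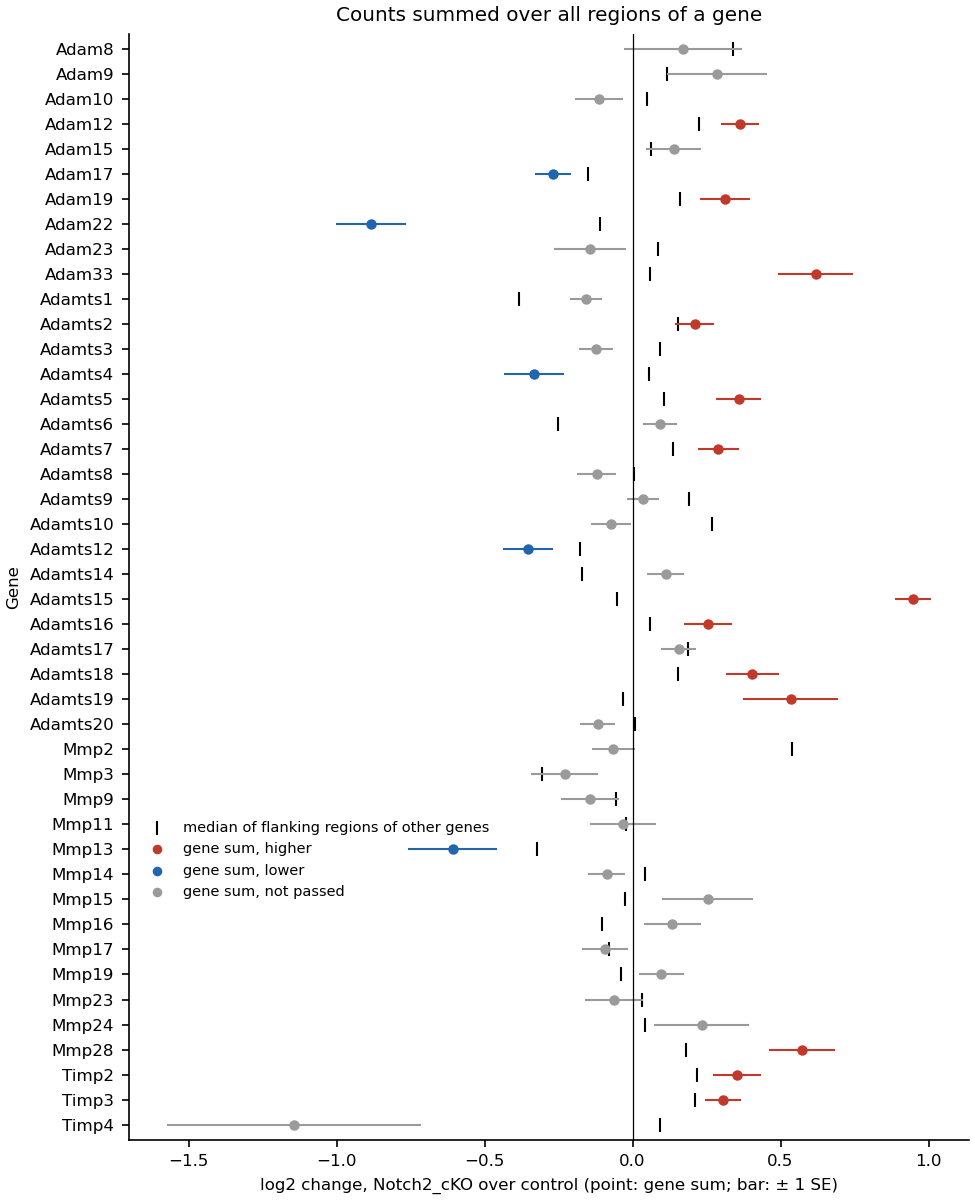
Log2 change of Notch2_cKO over control of counts summed over each gene's regions (points, with bars of 1 SE either side), coloured by the edgeR call; black ticks give the median log2 change of the 20 regions flanking the gene's own, 10 on each side. Adamts15 (0.95) and Adam22 (-0.88) are the called sums farthest from 0, and their ticks lie at -0.05 and -0.11. Of the 20 flanking regions, 7 were higher and 2 lower at Adamts15, and 0 higher and 4 lower at Adam22.

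Proteinase-type ADAMs, which carry an active zinc site, had 17 higher (22.4%) and 5 lower (6.58%) of 76 regions (median log2 0.25). Of all regions with a gene, 12.2% were higher and 10.4% lower. Adam12, a sheddase of growth factor ligands found in activated fibroblasts, had the most regions of the 44 genes, 38, with 10 higher and 0 lower. At the Adam12 region of smallest p, inside the gene (chromosome 7, 134128001 to 134128750), the libraries had 1.81 and 1.68 CPM in the controls and 3.69 and 3.15 CPM in Notch2_cKO (log2 change 1.00, SE 0.23, edgeR adjusted p = 0.00280). Both Notch2_cKO libraries lay above both controls. The Adam12 sum was 134 and 147 CPM in the controls and 181 and 179 CPM in Notch2_cKO (log2 change 0.36, SE 0.06, edgeR adjusted p = 0.00193), and the 20 flanking regions had a median log2 change of 0.22, with 7 higher and 0 lower. Its gene end did not pass: it had 6.13 and 7.54 CPM in the controls and 10.1 and 6.29 CPM in Notch2_cKO, and the groups overlapped (log2 change 0.31, SE 0.19, edgeR adjusted p = 0.267).

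Adam33, an ADAM expressed mainly in mesenchymal cells, rose at 2 of 4 regions. Inside the gene (chromosome 2, 131061551 to 131062000) the libraries had 0.703 and 0.560 CPM in the controls and 5.00 and 3.22 CPM in Notch2_cKO (log2 change 2.77, SE 0.29, edgeR adjusted p = 1.42e-06) and the groups stood well apart. At the gene end (chromosome 2, 131063301 to 131063900) there were 4.98 and 4.94 CPM in the controls and 8.37 and 5.87 CPM in Notch2_cKO (log2 change 0.57, SE 0.19, edgeR adjusted p = 0.0304), a smaller gap. The gene-end call was lost with DESeq2 (log2 0.58), with the replicate block (log2 0.52), without control replicate 1 (log2 0.56), without control replicate 2 (log2 0.55) and without Notch2_cKO replicate 1 (log2 0.25), with adjusted p from 0.000488 to 0.516 over its alternatives. The Adam33 sum was 15.2 and 14.0 CPM in the controls and 23.9 and 20.2 CPM in Notch2_cKO (log2 change 0.62, SE 0.13, edgeR adjusted p = 0.00467).

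Adam19, a sheddase of neuregulin, had 3 higher and 1 lower of 12 regions. Neighbouring regions inside it moved in opposite directions. The one at chromosome 11, 46085751 to 46086150, had 0.426 and 0.695 CPM in the controls and 2.50 and 1.52 CPM in Notch2_cKO (log2 change 1.91, SE 0.34, edgeR adjusted p = 0.000365), and the groups did not overlap; without Notch2_cKO replicate 1 it was log2 1.30. The next, from 46089151 to 46089750, had 2.32 and 1.82 CPM in the controls and 0.928 and 0.916 CPM in Notch2_cKO (log2 change -1.16, SE 0.29, edgeR adjusted p = 0.00573), a fall in both libraries. That lower call was lost with DESeq2 (log2 -1.15) and without control replicate 1 (log2 -0.94), with adjusted p from 0.000960 to 0.113 over its alternatives. The Adam19 sum was 59.8 and 53.0 CPM in the controls and 68.8 and 71.3 CPM in Notch2_cKO (log2 change 0.31, SE 0.08, edgeR adjusted p = 0.0218), and this call was lost with DESeq2 (log2 0.27) and without control replicate 2 (log2 0.23), with adjusted p from 0.00111 to 0.280 over its alternatives. Adam9, another broadly expressed sheddase, had 2 of 7 regions higher and none lower. Its region of smaller p (chromosome 8, 24975151 to 24975750) had 3.02 and 2.26 CPM in the controls and 3.67 and 5.46 CPM in Notch2_cKO (log2 change 0.73, SE 0.23, edgeR adjusted p = 0.0267), with the Notch2_cKO libraries above both controls. This Adam9 call was lost with DESeq2 (log2 0.81), without control replicate 2 (log2 0.52) and without Notch2_cKO replicate 2 (log2 0.48), with adjusted p from 0.000631 to 0.228 over its alternatives.

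Adam17 and Adam10, the main sheddases of the family, had accessible starts, and neither passed. Adam17, which releases TNF and ligands of the EGF receptor, had 79.7 and 85.0 CPM in the controls and 79.9 and 79.5 CPM in Notch2_cKO at its start (chromosome 12, 21373301 to 21373950), the highest level of any ADAM region (log2 change -0.05, SE 0.09, edgeR adjusted p = 0.746). Under TMM and median centring this region passed as lower (log2 -0.28 in both, edgeR adjusted p = 0.0352 and 0.0418). Behind it, 3 of its 5 inner regions fell. The one of smallest p (chromosome 12, 21356851 to 21357400) had 5.66 and 5.99 CPM in the controls and 2.398 and 2.69 CPM in Notch2_cKO (log2 change -1.22, SE 0.20, edgeR adjusted p = 0.000127), with no overlap. The Adam17 sum was 158 and 160 CPM in the controls and 130 and 135 CPM in Notch2_cKO (log2 change -0.27, SE 0.06, edgeR adjusted p = 0.00873), and this call was lost without control replicate 1 (log2 -0.28) and without control replicate 2 (log2 -0.26), with adjusted p from 0.000313 to 0.0650 over its alternatives; of the 20 flanking regions 7 were lower and 0 higher.

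Adam10, the sheddase of Notch receptors, had 50.3 and 48.4 CPM in the controls and 51.0 and 47.5 CPM in Notch2_cKO at its start (chromosome 9, 70678601 to 70679250), and the groups overlapped (log2 change 0.00, SE 0.10, edgeR adjusted p = 0.998). One of its 4 regions fell. It lay inside the gene (chromosome 9, 70748401 to 70749000) and had 2.28 and 2.26 CPM in the controls and 0.596 and 1.30 CPM in Notch2_cKO (log2 change -1.45, SE 0.32, edgeR adjusted p = 0.00221), both below the controls. That call was lost with DESeq2 (log2 -1.33) and without Notch2_cKO replicate 1 (log2 -0.82), with adjusted p from 2.32e-06 to 0.132 over its alternatives. Adam8 and Adam15 had no called region among 1 and 4.

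Adam22 and Adam23 encode ADAMs without an active site, which act as adhesion proteins and receptors, chiefly known from neurons. Together they had 2 higher (12.5%) and 5 lower (31.25%) of 16 regions (median log2 -0.50). All 6 Adam22 regions had negative log2 changes, from -0.54 to -1.31, and 4 passed as lower. The Adam22 region of smallest p, inside the gene (chromosome 5, 8088001 to 8088650), had 10.9 and 10.4 CPM in the controls and 5.15 and 6.53 CPM in Notch2_cKO (log2 change -0.90, SE 0.17, edgeR adjusted p = 0.000522). At the start shown above (chromosome 5, 8367901 to 8368400) there were 5.08 and 4.76 CPM in the controls and 3.44 and 2.46 CPM in Notch2_cKO (log2 change -0.67, SE 0.20, edgeR adjusted p = 0.0194), again with both Notch2_cKO libraries below both controls. The start call was lost with DESeq2 (log2 -0.66), without control replicate 1 (log2 -0.64) and without Notch2_cKO replicate 2 (log2 -0.51), with adjusted p from 0.00171 to 0.170 over its alternatives. The Adam22 sum was 32.9 and 29.2 CPM in the controls and 16.0 and 18.0 CPM in Notch2_cKO (log2 change -0.88, SE 0.12, edgeR adjusted p = 0.000273), and 4 of its 20 flanking regions were lower and 0 higher.

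Adam23 was mixed, with 2 higher and 1 lower of 10 regions. A region 31667 bp from the gene, on the side of its start (chromosome 1, 63413701 to 63414350) had 6.01 and 5.04 CPM in the controls and 1.72 and 2.85 CPM in Notch2_cKO (log2 change -1.38, SE 0.23, edgeR adjusted p = 0.000183). An inner region, 61709 bp past the start (chromosome 1, 63507301 to 63507900), had 2.09 and 2.54 CPM in the controls and 4.19 and 4.69 CPM in Notch2_cKO (log2 change 0.91, SE 0.21, edgeR adjusted p = 0.00313). The first fell and the second rose, each without overlap of the groups. The Adam23 sum had a log2 change of -0.14 and did not pass.

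Hyalectanases, the ADAMTS enzymes that cut versican and related proteoglycans, had 16 higher and 16 lower of 115 regions (13.9% each, median log2 -0.05). Calls differed in direction between neighbouring genes of this group. Adamts15 had 8 of 14 regions higher and 0 lower, and Adamts8, next to it on chromosome 9, had 0 higher and 2 lower of 12. Within 10000 bp Adamts15 had 3 regions, 2 higher and 0 lower, and Adamts8 had 9, 0 higher and 1 lower. The farther regions were assigned as those of the nearest gene. The Adamts15 region with the largest rise of all members lay 96055 bp from the gene (chromosome 9, 30802801 to 30803350) and had 1.02 and 1.11 CPM in the controls and 18.9 and 14.6 CPM in Notch2_cKO (log2 change 3.99, SE 0.21, edgeR adjusted p = 7.13e-10). Both controls were low there and both Notch2_cKO libraries far above them. A second, 54855 bp from the gene (chromosome 9, 30844001 to 30844650), was open in the controls and rose further, with 23.5 and 25.7 CPM in the controls and 56.1 and 61.4 CPM in Notch2_cKO (log2 change 1.25, SE 0.11, edgeR adjusted p = 1.26e-07). This second region was not picked by the rule for naming. At the gene end (chromosome 9, 30922301 to 30922950) there were 18.0 and 20.9 CPM in the controls and 46.1 and 40.6 CPM in Notch2_cKO (log2 change 1.16, SE 0.12, edgeR adjusted p = 1.02e-06). The Adamts15 sum, 116 and 122 CPM in the controls and 232 and 226 CPM in Notch2_cKO (log2 change 0.95, SE 0.06, edgeR adjusted p = 1.1e-06), had the smallest p of the 44 sums, and of its 20 flanking regions 7 were higher and 2 lower (median log2 -0.05).

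Adamts5, a main aggrecanase, was mixed: the gene end and an inner region rose, while 4 of 8 regions outside the gene fell and 1 rose. At the gene end (chromosome 16, 85900901 to 85901400) there were 33.2 and 34.8 CPM in the controls and 42.9 and 45.4 CPM in Notch2_cKO (log2 change 0.37, SE 0.10, edgeR adjusted p = 0.0120). This call was lost with TMM (log2 0.26), with median centring (log2 0.26), with DESeq2 (log2 0.27), without control replicate 1 (log2 0.34) and without control replicate 2 (log2 0.41), with adjusted p from 0.000355 to 0.217 over its alternatives. At the far side, 98625 bp away (chromosome 16, 85999451 to 86000000), there were 4.48 and 5.56 CPM in the controls and 12.0 and 14.9 CPM in Notch2_cKO (log2 change 1.39, SE 0.17, edgeR adjusted p = 8.11e-06), a rise of both libraries. Between them, 82875 bp away (chromosome 16, 85983851 to 85984150), there were 1.18 and 1.30 CPM in the controls and 0.312 and 0.148 CPM in Notch2_cKO (log2 change -2.24, SE 0.43, edgeR adjusted p = 0.000742), the largest fall among the 450 regions. It held 29 and 31 control counts against 9 and 2 Notch2_cKO counts, and without Notch2_cKO replicate 1 the change was log2 -3.10. This region was singled out after its values were seen. The Adamts5 sum was 96.3 and 109 CPM in the controls and 125 and 139 CPM in Notch2_cKO (log2 change 0.36, SE 0.08, edgeR adjusted p = 0.00664) and was lost without control replicate 1 (log2 0.27), with adjusted p from 9.48e-07 to 0.0941 over its alternatives.

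Adamts4, the other main aggrecanase, had 1 lower region of 3, lying 833 bp beyond the gene (chromosome 1, 171262701 to 171263300), with 22.8 and 20.3 CPM in the controls and 9.45 and 10.8 CPM in Notch2_cKO (log2 change -1.10, SE 0.14, edgeR adjusted p = 1.33e-05). Both Notch2_cKO libraries were below both controls. The Adamts4 sum was 73.1 and 62.8 CPM in the controls and 49.8 and 59.3 CPM in Notch2_cKO (log2 change -0.33, SE 0.10, edgeR adjusted p = 0.0368), and this call was lost without control replicate 1 (log2 -0.22) and without Notch2_cKO replicate 1 (log2 -0.19), with adjusted p from 1.36e-05 to 0.391 over its alternatives.

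Adamts20, known for its part in pigment cell spread in skin, had 31 regions, 3 higher and 6 lower. The 3 higher ones lay together, 32914 to 48164 bp outside the gene, and the lower ones lay nearer or inside it and on its other side. The lower region of smallest p, inside the gene (chromosome 15, 94294001 to 94294600), had 15.1 and 15.4 CPM in the controls and 5.77 and 7.34 CPM in Notch2_cKO (log2 change -1.25, SE 0.16, edgeR adjusted p = 1.12e-05), without overlap. Adamts1, which is induced in many cells by inflammation, held the highest level of the ADAMTS regions 2163 bp past its start (chromosome 16, 85800651 to 85801200). There the libraries had 74.5 and 76.6 CPM in the controls and 69.5 and 81.1 CPM in Notch2_cKO and overlapped (log2 change -0.01, SE 0.09, edgeR adjusted p = 0.949). Of its 15 regions 1 was higher and 2 were lower, and of the 20 flanking regions 3 were higher and 8 lower. Adamts9, a versicanase, had 1 higher and 1 lower of 29.

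**Figure D4:**
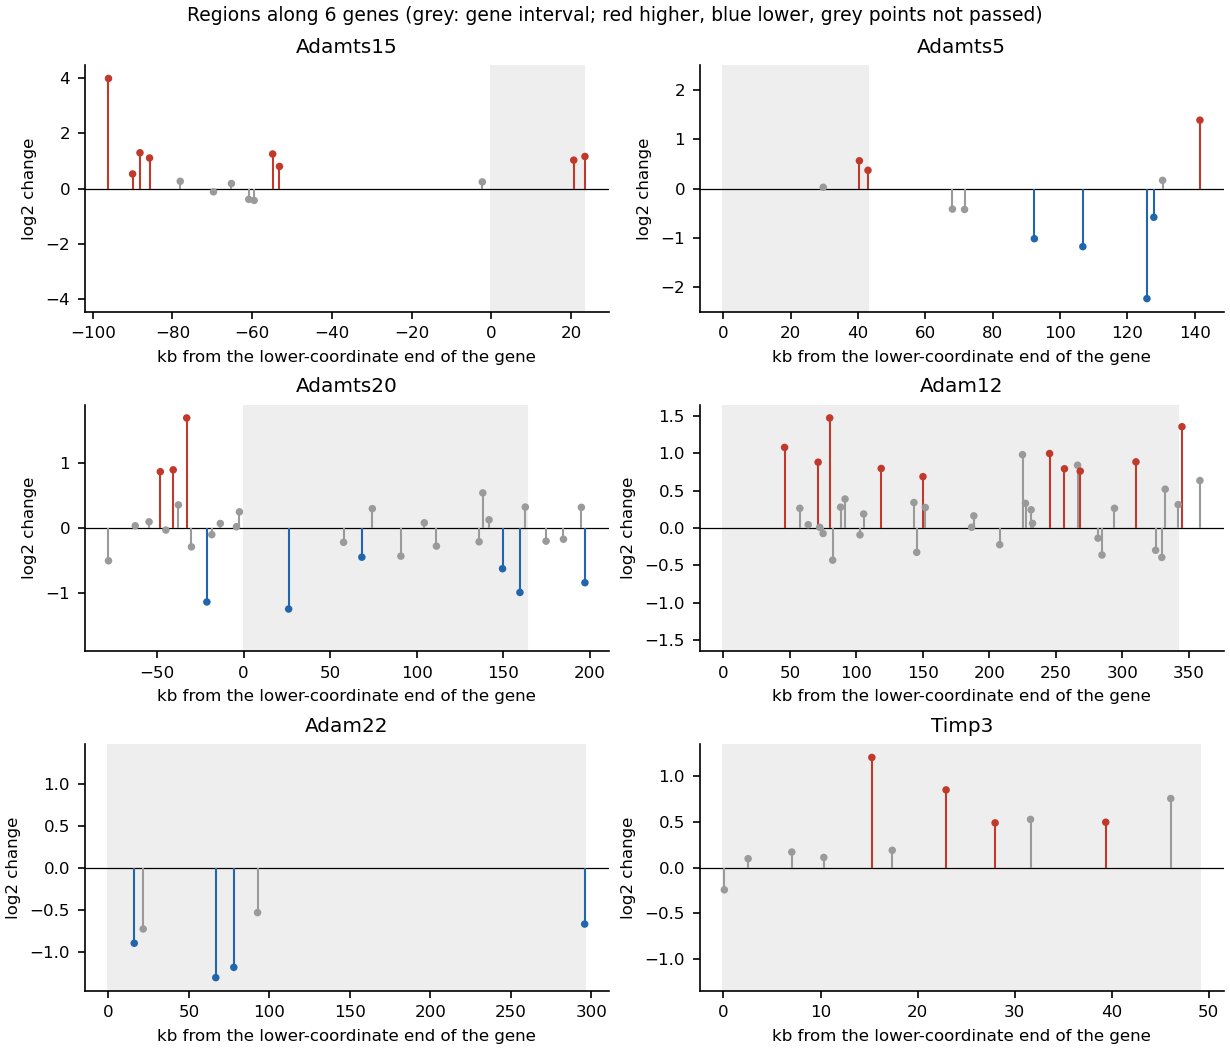
Log2 change of Notch2_cKO over control (vertical axis) of each region along 6 genes, against distance in kb from the lower-coordinate end of the gene (grey band: gene interval; red higher, blue lower, grey points not passed). At Adamts15 the 8 called regions are all red, and at Adam22 the 4 called regions are all blue. At Adamts20 the red regions lie together, apart from the blue ones, while at Adamts5 red regions lie on both sides of a blue one.

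Procollagen N-proteinases (Adamts2, Adamts3 and Adamts14), which trim the amino end of fibrillar procollagens, had 7 higher (11.7%) and 8 lower (13.3%) of 60 regions (median log2 0.04). Adamts2 held all 7 higher calls of this group, and 3 lower ones, among 32 regions. Adamts3 had 0 higher and 5 lower of 16. At the Adamts3 region of smallest p, inside the gene (chromosome 5, 89704151 to 89704800), there were 20.3 and 21.3 CPM in the controls and 12.2 and 12.2 CPM in Notch2_cKO (log2 change -0.77, SE 0.13, edgeR adjusted p = 0.000278). Both Notch2_cKO libraries lay below the controls, although the Adamts3 sum (log2 -0.12) did not pass. The start of Adamts2 (chromosome 11, 50601701 to 50602250) had 21.3 and 21.4 CPM in the controls and 26.3 and 18.0 CPM in Notch2_cKO, and the 2 Notch2_cKO libraries lay on either side of the controls (log2 change 0.08, SE 0.15, edgeR adjusted p = 0.737). The Adamts2 sum, 205 and 213 CPM in the controls and 257 and 226 CPM in Notch2_cKO (log2 change 0.21, SE 0.07, edgeR adjusted p = 0.0411), was the smallest change among the higher sums. It was lost with TMM (log2 0.17), with median centring (log2 0.16), with DESeq2 (log2 0.16), with the replicate block (log2 0.20), without control replicate 1 (log2 0.17), without control replicate 2 (log2 0.23) and without Notch2_cKO replicate 1 (log2 0.12), with adjusted p from 9.41e-05 to 0.257 over its alternatives. Adamts14 had no call among 12 regions.

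Adamts7 and Adamts12, which cut the cartilage oligomeric matrix protein COMP, had calls in opposite directions: Adamts7 had 2 higher and 0 lower of 4 regions, Adamts12 0 higher and 4 lower of 12. The lower Adamts12 region of smallest p, inside the gene (chromosome 15, 11084651 to 11085400), had 11.7 and 8.09 CPM in the controls and 2.53 and 4.49 CPM in Notch2_cKO (log2 change -1.60, SE 0.23, edgeR adjusted p = 4.44e-05). At the Adamts12 start shown above (chromosome 15, 11064601 to 11064900) there were 30.5 and 29.5 CPM in the controls and 20.0 and 22.9 CPM in Notch2_cKO (log2 change -0.49, SE 0.12, edgeR adjusted p = 0.00493). In both, the Notch2_cKO libraries lay below both controls, and the start's call was lost without control replicate 1 (log2 -0.49), with adjusted p from 1.21e-05 to 0.0722 over its alternatives. The Adamts12 sum was 81.0 and 76.4 CPM in the controls and 57.9 and 66.2 CPM in Notch2_cKO (log2 change -0.35, SE 0.08, edgeR adjusted p = 0.0111), and this call was lost without control replicate 1 (log2 -0.31), with adjusted p from 6.31e-06 to 0.119 over its alternatives. For Adamts7 the gene end (chromosome 9, 90162551 to 90163050) had 36.3 and 35.4 CPM in the controls and 37.2 and 37.0 CPM in Notch2_cKO and did not pass (log2 change 0.05, SE 0.10, edgeR adjusted p = 0.788). The Adamts7 sum was 83.0 and 79.3 CPM in the controls and 98.7 and 99.9 CPM in Notch2_cKO (log2 change 0.29, SE 0.07, edgeR adjusted p = 0.0114), and this call was lost with median centring (log2 0.22), with DESeq2 (log2 0.22), without control replicate 1 (log2 0.32) and without control replicate 2 (log2 0.26), with adjusted p from 0.000641 to 0.141 over its alternatives.

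The other ADAMTS genes (Adamts6, Adamts10, Adamts16, Adamts17, Adamts18 and Adamts19) had 17 higher (20.7%) and 6 lower (7.32%) of 82 regions (median log2 0.13). Adamts6, an enzyme related to Adamts10 in the fibrillin matrix, had neighbouring regions that moved in opposite directions. The region 3005 bp from the gene (chromosome 13, 104499401 to 104500050) had 1.51 and 1.11 CPM in the controls and 9.72 and 7.86 CPM in Notch2_cKO (log2 change 2.78, SE 0.22, edgeR adjusted p = 5.64e-08), a rise in both libraries. The one 9555 bp from it (chromosome 13, 104505951 to 104506600) had 24.9 and 19.6 CPM in the controls and 11.9 and 13.3 CPM in Notch2_cKO (log2 change -0.83, SE 0.15, edgeR adjusted p = 0.000316), a fall in both. The Adamts6 sum had a log2 change of 0.09 and did not pass.

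Adamts17, another ADAMTS of the fibrillin matrix, rose at a region 94115 bp past its start (chromosome 7, 66933651 to 66934100), with 3.38 and 3.91 CPM in the controls and 12.4 and 10.3 CPM in Notch2_cKO (log2 change 1.65, SE 0.17, edgeR adjusted p = 1.48e-06). It had 3 higher and 1 lower of 21 regions. Adamts16 had 5 higher and 1 lower of 13, and its region of smallest p, inside the gene (chromosome 13, 70729751 to 70730400), had 2.98 and 3.00 CPM in the controls and 9.70 and 8.97 CPM in Notch2_cKO (log2 change 1.65, SE 0.18, edgeR adjusted p = 1.68e-06). Both genes' Notch2_cKO libraries stood clear of the controls at these regions. The Adamts16 sum (log2 change 0.26, SE 0.08, edgeR adjusted p = 0.0412) was lost with TMM (log2 0.23), with median centring (log2 0.23), with DESeq2 (log2 0.23), with the replicate block (log2 0.26), without control replicate 1 (log2 0.25) and without control replicate 2 (log2 0.27), with adjusted p from 0.00817 to 0.294 over its alternatives.

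Adamts18, a matrix protease important in eye and lung development, had 4 higher and 0 lower of 14 regions. Neither of its gene ends passed. The start (chromosome 8, 113848501 to 113849050) had 2.89 and 3.34 CPM in the controls and 4.54 and 3.38 CPM in Notch2_cKO (log2 change 0.39, SE 0.21, edgeR adjusted p = 0.187), and the other end (chromosome 8, 113697401 to 113698100) had 13.3 and 13.8 CPM in the controls and 12.5 and 12.3 CPM in Notch2_cKO (log2 change -0.13, SE 0.14, edgeR adjusted p = 0.568). The Adamts18 sum was 46.0 and 46.7 CPM in the controls and 57.7 and 65.9 CPM in Notch2_cKO (log2 change 0.40, SE 0.09, edgeR adjusted p = 0.00756), with both Notch2_cKO libraries above the controls. Adamts19 had 1 of 2 regions higher and none lower, and its sum (log2 change 0.53, SE 0.16, edgeR adjusted p = 0.0340) was lost without control replicate 2 (log2 0.39), with adjusted p from 0.000437 to 0.253 over its alternatives. Adamts10 had 0 higher and 2 lower of 13 regions.

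Secreted MMPs (Mmp2, Mmp3, Mmp9, Mmp11, Mmp13, Mmp19 and Mmp28) had 4 higher (12.9%) and 6 lower (19.35%) of 31 regions (median log2 0.15). Mmp28, a secreted MMP also called epilysin, accounted for 3 of the higher ones and none of the lower among its 6 regions. The Mmp28 region of largest change lay 4310 bp before the start (chromosome 11, 83467151 to 83467550), with 0.164 and 0.168 CPM in the controls and 1.28 and 1.78 CPM in Notch2_cKO (log2 change 3.10, SE 0.45, edgeR adjusted p = 4.98e-05). These levels rest on 4 and 4 counts in the controls, and on 37 and 24 in Notch2_cKO. At the Mmp28 start shown above (chromosome 11, 83462701 to 83463350) there were 5.37 and 6.12 CPM in the controls and 10.3 and 7.06 CPM in Notch2_cKO (log2 change 0.64, SE 0.18, edgeR adjusted p = 0.0154), both above the controls. The start's call was lost with DESeq2 (log2 0.65), without control replicate 1 (log2 0.53) and without Notch2_cKO replicate 1 (log2 0.30), with adjusted p from 3.24e-05 to 0.380 over its alternatives. The Mmp28 sum was 18.8 and 18.2 CPM in the controls and 28.8 and 25.8 CPM in Notch2_cKO (log2 change 0.57, SE 0.11, edgeR adjusted p = 0.00377).

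Mmp2, a gelatinase made by fibroblasts, had 1 higher and 2 lower of 9 regions. Inside the gene (chromosome 8, 92838551 to 92839000) there were 11.1 and 8.09 CPM in the controls and 4.18 and 4.65 CPM in Notch2_cKO (log2 change -1.13, SE 0.19, edgeR adjusted p = 0.000172), a fall in both libraries. Outside it, 54890 bp away (chromosome 8, 92772051 to 92772750), there were 5.03 and 4.70 CPM in the controls and 6.26 and 8.97 CPM in Notch2_cKO (log2 change 0.60, SE 0.19, edgeR adjusted p = 0.0267). That higher call was lost with DESeq2 (log2 0.67), without control replicate 1 (log2 0.64), without control replicate 2 (log2 0.55) and without Notch2_cKO replicate 2 (log2 0.37), with adjusted p from 0.000542 to 0.159 over its alternatives. The 20 regions flanking Mmp2 had a median log2 change of 0.54, with 9 higher and 0 lower, the opposite direction to its inner falls.

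Mmp3 and Mmp13, a stromelysin and a collagenase in the cluster of MMP genes on chromosome 9, had 1 lower region each and none higher, among 4 and 3. At Mmp13 it lay 24414 bp before the start (chromosome 9, 7247751 to 7248450), with 6.36 and 4.72 CPM in the controls and 2.33 and 2.08 CPM in Notch2_cKO (log2 change -1.30, SE 0.21, edgeR adjusted p = 0.000176). At Mmp3 it lay 7628 bp past the start (chromosome 9, 7453101 to 7453650), with 6.63 and 7.63 CPM in the controls and 4.90 and 3.16 CPM in Notch2_cKO (log2 change -0.75, SE 0.20, edgeR adjusted p = 0.00786). Both fell without overlap, and the flanking regions were also low: 7 of 20 were lower and 0 higher at Mmp13 (median log2 -0.32), and 8 lower and 1 higher at Mmp3 (-0.31). The genes lie close together, so these flanks are not separate sets, and that of Mmp3 holds the lower Mmp13 region. The Mmp3 call was lost with DESeq2 (log2 -0.75) and without control replicate 2 (log2 -0.66), with adjusted p from 2.2e-05 to 0.0634 over its alternatives. The Mmp13 sum was 15.8 and 13.4 CPM in the controls and 8.71 and 10.9 CPM in Notch2_cKO (log2 change -0.61, SE 0.15, edgeR adjusted p = 0.0136), and this call was lost with DESeq2 (log2 -0.48), without control replicate 1 (log2 -0.48) and without Notch2_cKO replicate 1 (log2 -0.42), with adjusted p from 2.5e-05 to 0.161 over its alternatives. Mmp9, the other gelatinase, had 0 higher and 2 lower of 5.

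Membrane-type MMPs (Mmp14, Mmp15, Mmp16, Mmp17 and Mmp24) had 5 higher (16.1%) and 4 lower (12.9%) of 31 regions (median log2 0.06). Mmp14, the membrane collagenase that activates pro-MMP2, had none called among 4. The region with the highest MMP level lay 1294 bp beyond it (chromosome 14, 54443551 to 54444100), with 61.9 and 62.4 CPM in the controls and 61.0 and 68.6 CPM in Notch2_cKO and overlapping groups (log2 change 0.06, SE 0.09, edgeR adjusted p = 0.723). Mmp16, which also activates pro-MMP2, had 3 higher and 3 lower of 14. Inside it, the region from 17856751 to 17857200 on chromosome 4 had 0.529 and 0.439 CPM in the controls and 4.14 and 5.30 CPM in Notch2_cKO (log2 change 3.24, SE 0.28, edgeR adjusted p = 2e-07). The region from 17969651 to 17970250 had 2.77 and 2.38 CPM in the controls and 0.825 and 0.995 CPM in Notch2_cKO (log2 change -1.54, SE 0.28, edgeR adjusted p = 0.000384), so that one gene held a rise and a fall, each without overlap. The Mmp16 sum had a log2 change of 0.13 and did not pass.

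The remaining membrane-type calls were single regions. Mmp15 rose inside the gene (chromosome 8, 95360201 to 95360800), with 1.81 and 1.75 CPM in the controls and 4.56 and 3.30 CPM in Notch2_cKO (log2 change 1.19, SE 0.23, edgeR adjusted p = 0.000691). Mmp24, known from neurons, rose at an inner region (chromosome 2, 155809701 to 155810000) with 0.485 and 0.210 CPM in the controls and 0.982 and 1.33 CPM in Notch2_cKO (log2 change 1.65, SE 0.43, edgeR adjusted p = 0.00860). The Mmp24 region held 5 to 28 counts per library, and its call was lost without control replicate 2 (log2 1.21; 2.45 without control replicate 1), with adjusted p from 0.000364 to 0.0939 over its alternatives. Mmp17, which is anchored by a lipid, fell 12901 bp outside the gene (chromosome 5, 129623651 to 129624250), with 2.96 and 1.66 CPM in the controls and 0.497 and 0.840 CPM in Notch2_cKO (log2 change -1.91, SE 0.36, edgeR adjusted p = 0.000573).

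The TIMP inhibitors had 5 higher and 1 lower of 21 regions. Timp3, the inhibitor that binds to the matrix and also blocks ADAM17 and aggrecanases, had 4 of 11 regions higher and 0 lower. All 11 also lie inside Syn3, the synapsin gene in which Timp3 is nested, so the gene they act on was not tested. The Timp3 region of smallest p (chromosome 10, 86315401 to 86315950) had 3.65 and 3.32 CPM in the controls and 7.55 and 8.72 CPM in Notch2_cKO (log2 change 1.21, SE 0.18, edgeR adjusted p = 5.96e-05). The highest TIMP level lay at chromosome 10, 86339451 to 86340150, with 30.8 and 29.2 CPM in the controls and 40.5 and 44.4 CPM in Notch2_cKO (log2 change 0.50, SE 0.11, edgeR adjusted p = 0.00192). Both regions rose in both libraries, but the second call was lost without control replicate 2 (log2 0.46), with adjusted p from 1.18e-06 to 0.0738 over its alternatives. At the start (chromosome 10, 86300201 to 86300800) there were 27.4 and 27.7 CPM in the controls and 25.8 and 20.2 CPM in Notch2_cKO (log2 change -0.24, SE 0.13, edgeR adjusted p = 0.182), below the controls without passing. Without Notch2_cKO replicate 1 and with the crossed replicate block the start passed as lower (log2 -0.44 and -0.25). The Timp3 sum was 170 and 159 CPM in the controls and 203 and 205 CPM in Notch2_cKO (log2 change 0.31, SE 0.06, edgeR adjusted p = 0.00383), and this call was lost without control replicate 2 (log2 0.25), with adjusted p from 3.25e-05 to 0.0666 over its alternatives.

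Timp2, which inhibits MMPs and takes part in the activation of pro-MMP2, had 1 of 9 regions higher and 0 lower. It lay 9939 bp before the start (chromosome 11, 118365001 to 118365650), with 9.13 and 9.78 CPM in the controls and 14.6 and 13.2 CPM in Notch2_cKO (log2 change 0.56, SE 0.15, edgeR adjusted p = 0.00757), without overlap. This call was lost without control replicate 1 (log2 0.50) and without control replicate 2 (log2 0.60), with adjusted p from 0.000154 to 0.117 over its alternatives. The Timp2 start (chromosome 11, 118355051 to 118355700) had 14.2 and 16.2 CPM in the controls and 18.0 and 16.0 CPM in Notch2_cKO and overlapping groups (log2 change 0.17, SE 0.14, edgeR adjusted p = 0.409). The Timp2 sum was 56.6 and 62.9 CPM in the controls and 78.2 and 74.0 CPM in Notch2_cKO (log2 change 0.35, SE 0.08, edgeR adjusted p = 0.00974), and this call was lost without control replicate 1 (log2 0.28), with adjusted p from 6.64e-05 to 0.172 over its alternatives. Timp4 had a single region (chromosome 6, 115251701 to 115252000), also inside Syn2, with 0.951 and 0.756 CPM in the controls and 0.396 and 0.294 CPM in Notch2_cKO (log2 change -1.23, SE 0.43, edgeR adjusted p = 0.0447), from 4 to 24 counts per library. The Timp4 call was lost with limma-voom (log2 -1.17), without control replicate 1 (log2 -0.95), without control replicate 2 (log2 -1.28), without Notch2_cKO replicate 1 (log2 -1.64) and without Notch2_cKO replicate 2 (log2 -1.20), with adjusted p from 0.0321 to 0.306 over its alternatives.

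**Figure D5:**
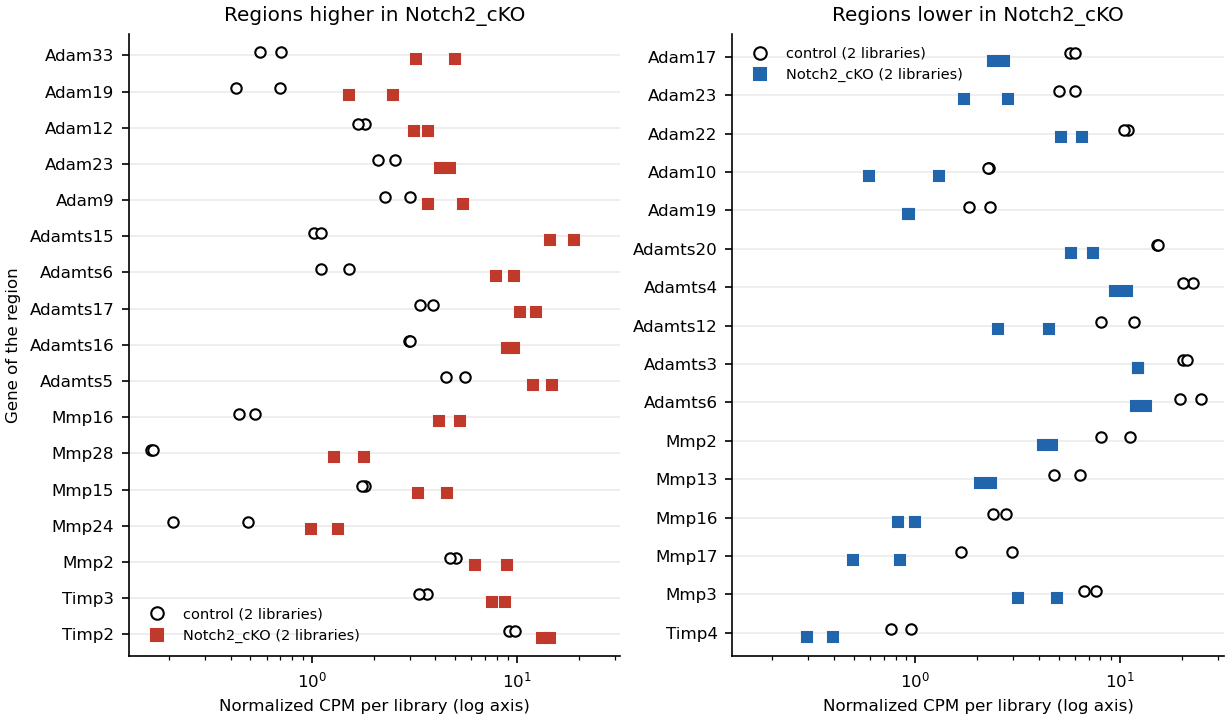
Normalized CPM of each library (horizontal log axis; open circles: 2 controls, filled squares: 2 Notch2_cKO libraries) at the region of smallest p of each gene named by rank, higher regions left and lower regions right. The gap is widest at Adamts15, Mmp16 and Mmp28, and the 2 Notch2_cKO libraries lie beyond both controls in each row because the rule for naming asked for it.

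The distance limit of 100000 bp decided a few members. Just inside it lay the Adamts5 region at 98625 bp (log2 1.39, higher), Adamts3 regions at 98082 bp (-0.61, lower) and 96732 bp (-0.10, not passed), and the Adamts15 region at 96055 bp (3.99, higher). Just outside it lay regions nearest to Adamts15 at 104005 bp (1.30, higher), Adamts18 at 104607 bp (0.71, higher) and Adamts20 at 109014 bp (-0.40, not passed). With a limit of 10000 bp, ADAMTS genes had 23 higher and 22 lower regions.

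Genes that act with these enzymes were counted in the same way. Of all regions with a gene, 12.2% were higher and 10.4% lower. Activators and inhibitors, such as proprotein convertases, plasminogen activators and RECK, had 28 higher (29.2%) and 6 lower (6.25%) of 96 regions (median log2 0.17). Inside Plaur, the urokinase receptor gene (chromosome 7, 24470201 to 24470850), there were 10.8 and 10.4 CPM in the controls and 42.5 and 41.3 CPM in Notch2_cKO (log2 change 1.98, SE 0.12, edgeR adjusted p = 3.57e-09). Pcsk5, a proprotein convertase, had 7 higher and 1 lower of 20, and A2m, a broad protease trap, 6 higher and 0 lower of 9. The lower region of smallest p lay near Plau, the urokinase gene (log2 -0.81, SE 0.21, edgeR adjusted p = 0.00708; lost with DESeq2, log2 -0.78, and without control replicate 2, log2 -0.72), which also had 3 higher of 14.

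The iRhoms and TspanC8 tetraspanins, partners of ADAM17 and ADAM10, had 5 higher and 5 lower of 51 regions (9.8% each, median log2 -0.03). Tspan10 is not analysed here. A Tspan17 region rose (log2 1.06, SE 0.17, edgeR adjusted p = 0.000104) and a Tspan15 region fell (log2 -2.25, SE 0.26, edgeR adjusted p = 4.39e-06). ADAMTS-like proteins, which lack the protease domain, had 20 higher (16.8%) and 11 lower (9.24%) of 119 (median 0.05). Thsd4 had 9 higher and 0 lower of 36, and Adamtsl1 5 higher and 10 lower of 47. The Adamtsl1 regions of smallest p in each direction had log2 1.98 and -0.91 (edgeR adjusted p = 2.67e-06 and 0.00014). Astacins, the tolloid and meprin proteases, had 6 higher (18.75%) and 4 lower (12.5%) of 32 (median 0.09). Tll2 had 4 higher and 0 lower of 12, and Tll1 0 higher and 3 lower of 8. Hyalectan substrates had 2 higher and 2 lower of 20 (10% each, median 0.02). Among them were a higher region at Ncan (log2 0.87, SE 0.24, edgeR adjusted p = 0.0118) and a lower one at Vcan, which encodes versican (log2 -0.65, SE 0.18, edgeR adjusted p = 0.0133).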

How the data were processed

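ATAC-seq libraries of sorted lymph node fibroblasts (2 control, 2 Notch2_cKO, each a separate pool of 6 mice per the labels) were analysed. The authors deposited counts for 678058 overlapping windows of 300 bp; per the labels, csaw produced them as loess-normalized values, but library totals differ as raw counts do (80428121 to 196562399 over all windows), so the deposited counts were treated as not normalized. The tools in the submitters' processing notes are Bowtie2 2.4.5, Trim Galore 0.6.7 with cutadapt, Picard 2.27.5, SAMtools 1.14 and deepTools, on build mm10. Which peak caller ran, and whether reads were shifted for the transposase, is not given in the sources used here.

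Windows up to 100 bp apart were merged, and the window with the highest summed count stood for its region. Distances run from that window's midpoint, and a midpoint in several genes went to the shortest one (14 member regions). Genes came from RefSeq (21900 protein-coding genes). Loess offsets in the manner of csaw (limma 3.58.1) entered edgeR 4.0.16 in R 4.3.3, fitted over all regions, or over summed counts of 17693 genes, with genotype as the only term and Benjamini-Hochberg adjustment at 0.05. The SE was taken as the absolute log2 change divided by the root of edgeR's F. An exact permutation test of 2 against 2 libraries cannot go below p = 0.333. The scripts were tested on simulated data, and figures were drawn with Python and matplotlib.

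Regions were named by rank: in each family and direction, the called region of smallest p of each of 5 genes (2 for TIMP) whose groups did not overlap; the gene-end region of each gene with a called sum; the region of highest level in each family; and, for each list of related genes, the called region of smallest p in each direction. Outside these ranks, values are also given for the second Adamts15 region outside the gene, the Adamts5 region with the largest fall, and the starts of Adam10 and Notch2. The members and lists were chosen with earlier results of these data known. Alternatives were TMM, median centring, DESeq2 1.42.0, limma-voom, leaving out the lowest 25% of regions, a replicate block, merging at 500 bp, a gene limit of 10000 bp, a 1.5-fold minimum and each library left out; a crossed replicate block was added after seeing the data. With 1 library left out, its group's remaining library is taken to vary as the other group's do. Replicates differed beyond counting noise (chi-square per region 1.88 between controls and 2.68 between Notch2_cKO libraries, 10 between control 1 and Notch2_cKO 1), so none was taken as a duplicate. No genome sequence was used here, so peak sequences and GC correction are not given. The values of 1 gene-end region that the naming rule picks are not reported here.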

Additional observations from a re-analysis of the deposited data

How the results depend on the processing

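None of the 75 higher and 55 lower member calls changed sign in any fit run on the same regions. Of 44 called regions given with their values, 29 passed in each alternative that gave them a value, as did 6 of the 18 called gene sums. The Tspan17, Tspan15, Adamtsl1, Ncan and Vcan regions were not among these 44. Other counts moved as follows. With DESeq2 there were 39 higher and 26 lower member regions, 6 and 6 at ADAM, 25 and 14 at ADAMTS, 5 and 6 at MMP, 3 and 0 at TIMP, and 1 and 2 at gene ends. Leaving out the lowest 25% of regions gave 12 and 6 at ADAM and 0 lower at TIMP, as limma-voom did for TIMP lower. A 1.5-fold minimum left 2 higher at TIMP. A gene limit of 10000 bp gave 23 and 22 at ADAMTS and 6 lower at MMP. Merging at 500 bp left the region counts of the members and of each family at their values. This merge, the gene limit of 10000 bp and the 1.5-fold minimum were not run for sums and gene ends. Higher calls made up 57.7% of member calls, 57.6% with TMM, 59.4% with median centring and 60% with DESeq2. Over all regions the shares were 52.5%, 51.5%, 52.3% and 57.4% in the same order.

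With single libraries left out, member regions ranged from 46 to 80 higher and 35 to 58 lower, ADAM from 10 to 20 and 6 to 11, ADAMTS from 27 to 43 and 22 to 36, MMP from 7 to 12 and 7 to 11, TIMP from 2 to 5 and 0 to 1, gene sums from 7 to 16 and 1 to 6, and gene ends from 1 to 9 and 1 to 8. The counts that moved by over 1.5 times are given by library in the report, and the cause was not tested.

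Replicate numbers did not pair the samples: deviations of same-numbered libraries correlated at -0.15. With the replicate block 69 member regions were higher and 48 lower, and 11 gene sums were higher and 5 lower. A block with crossed numbers gave 95 and 70 member regions, 14 higher at MMP, 2 lower at TIMP and 7 lower at gene ends.

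Some values that did not pass changed sign. With TMM, median centring and DESeq2 the Mmp14 region went to log2 -0.14, -0.13 and -0.13, the Adamts7 gene end to -0.0495, -0.0469 and -0.0443, and the Adam10 start to -0.15, -0.14 and -0.14 (-0.0033 with the replicate block). With single libraries left out, the Adamts1 region of highest level ranged from -0.12 to 0.11 (0.0041 without control replicate 2), the Mmp14 region from -0.0265 to 0.15, the Adam12 gene end from -0.11 to 0.56, the Adam10 start from -0.0507 to 0.0537 (-0.0353 without control replicate 2) and the Adamts2 start from -0.24 to 0.32. The cause was not tested. Depth limits regions under about 1 CPM, where single libraries held as few as 2 counts.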
